A study of Mus musculus with 15 samples.

Results

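A set of 10 genes that build or maintain the epithelial state was followed through every library of the series. They are the splicing regulators ESRP1 and ESRP2, the grainyhead-like factors GRHL1, GRHL2 and GRHL3, the OVO-like repressors OVOL1 and OVOL2, the epithelial ETS factors ELF3 and EHF, and the Krüppel-like factor KLF5. The list was drawn up with earlier results of these data in view. All 10 were found among the 25382 genes of the count table, and all 10 passed the filter on low counts that left 15190 genes for testing. Levels are given as CPM, the count of a gene scaled to the TMM-corrected size of its library. A CPM value may be compared between libraries for 1 gene but not between genes, since it is not divided by gene length.

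The 15 libraries were bulk mRNA profiles of primary tumours grown in mice of the strain labelled Nod/Skid from GFP+ Luc+ cells of MDA-MB-231, an established line of human triple-negative breast cancer. Fluid shear had been used to separate the cells by the strength of their grip. Tumours of weakly adherent cells (shear of 10 dyn/cm2, n = 6), of strongly adherent cells (50 dyn/cm2, n = 4) and of unsorted cells that saw no shear (n = 5) were dissociated, and RNA was taken from all the cells together. Each title also carries a number, 4, 5, 6, 7-8, 9 or 10, whose meaning the labels do not give. Number 10 has a weakly adherent library alone and number 7-8 has no strongly adherent one. Libraries are named here by class and number. The labels do not say whether a library is 1 tumour or a pool, so every p-value measures only the spread between these libraries, which may be partly technical.

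ESRP1 and ESRP2 are RNA-binding proteins that favour the epithelial splice forms of transcripts such as those of FGFR2, CD44 and CTNND1. GRHL2 activates junction genes, and GRHL2 and the OVOL factors hold down ZEB1, a repressor that in turn silences ESRP1, GRHL2, OVOL2 and CDH1, so the 2 sides are known to oppose each other during epithelial-mesenchymal transition (EMT). MDA-MB-231 cells in culture are known for the mesenchymal side of that balance, with little or no CDH1 (E-cadherin), ESRP1 or GRHL2.

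The 3 libraries titled 6 had CDH1, ESRP1 and GRHL2 at such low levels, and the 12 others did not, which goes against what is known of the labelled line. Whether the 12 hold MDA-MB-231 cells was not tested. CDH1 stood at 5.56, 0.267 and 0.407 CPM in weakly adherent, strongly adherent and unsorted library 6, and at 53.1 to 549 CPM in the other 12. VIM, the mesenchymal filament protein vimentin, was at 6490 to 7400 CPM in the libraries titled 6 and at 1140 to 4480 CPM in the others. CDKN2A and CDKN2B, which are deleted in this line, had no read in any of the 15 libraries. Of the 12 genes listed as high in cultured MDA-MB-231 cells, 3 lay wholly above the others in the libraries titled 6 and 9 overlapped. Among all genes tested, 5.63% lay wholly above there and 10.4% wholly below. Of the 8 tested genes listed as low in the cultured cells, 6 lay wholly below and 2 overlapped. Total counts ran between 30372619 and 45434799 reads and did not set the libraries titled 6 apart, which held 35870922 to 40949820. The number of genes with a count did, at 16760 to 17256 in the libraries titled 6 and 17383 to 17974 in the others. The counts are of human genes, and reads from the mouse host that match a human gene may have been counted with them.

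In the 3 libraries titled 6, 7 of the 10 regulators lay wholly below their level in all 12 others, none lay above, and 3 overlapped. Among all genes tested, 10.4% lay wholly below in the libraries titled 6 and 5.63% wholly above. The members were chosen with this split known, so the values that follow describe it and no test was made of it. In bulk RNA, fewer cells that express a gene and less of its RNA per cell cannot be told apart.

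**Figure D1:**
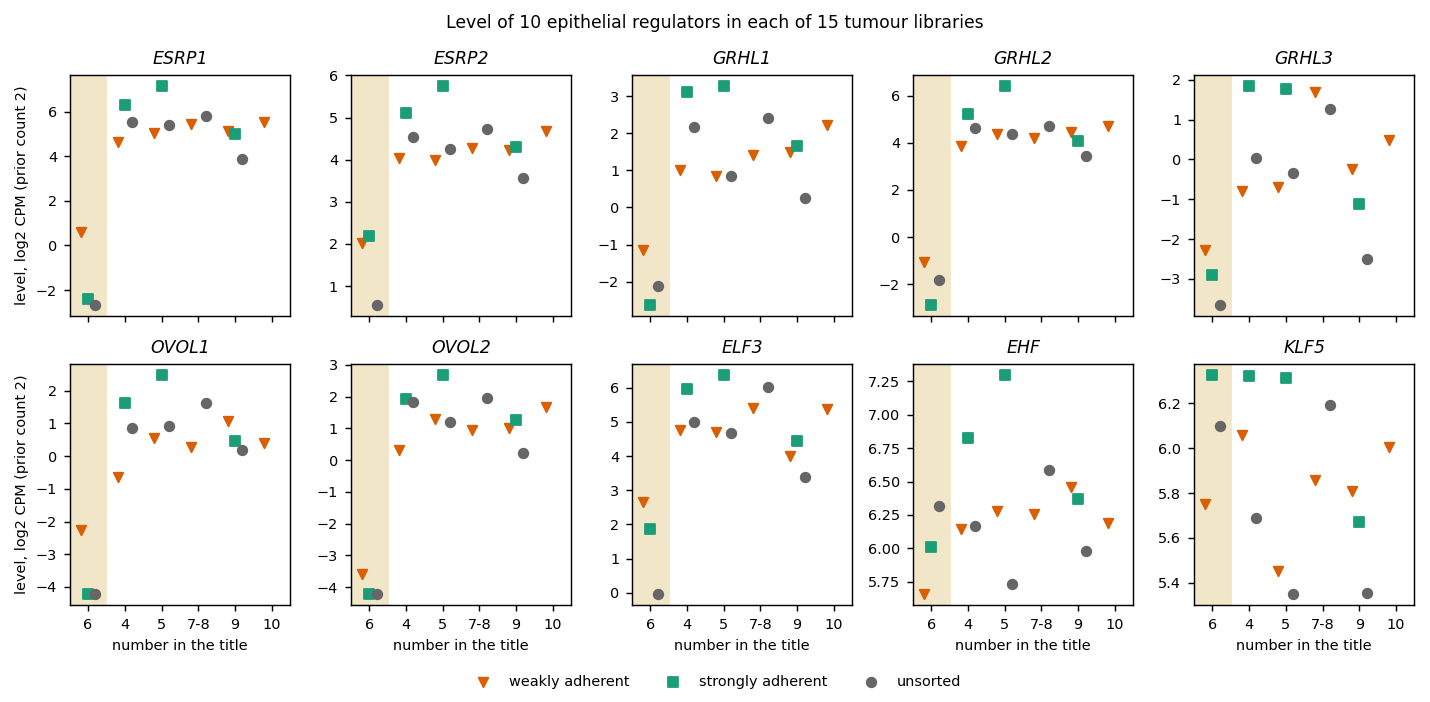
Log2 CPM (prior count 2) of each regulator, 1 panel per gene, against the number in the library title, with number 6 shaded. Each point is 1 library, and marker and colour give the adhesion class. At number 6 the points of 8 panels sit at the foot of the axis, while those of EHF and KLF5 lie among or next to the other libraries.

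Of the splicing regulators, ESRP1 was close to 0 in the libraries titled 6. Its level there was 1.44 CPM in the weakly adherent, 0.134 CPM in the strongly adherent and 0.102 CPM in the unsorted library, from 47, 5 and 4 reads. In the other libraries it was 24.4, 33.2, 42.7, 34.7 and 46.3 CPM in weakly adherent libraries 4, 5, 7-8, 9 and 10, then 78.9, 143 and 31.3 CPM in strongly adherent libraries 4, 5 and 9, and 46.6, 42.7, 55.3 and 14.7 CPM in unsorted libraries 4, 5, 7-8 and 9. The classes overlapped outside number 6, with strongly adherent libraries 4 and 5 the highest and unsorted library 9 the lowest. Pooled over libraries, the ESRP1 rate under number 6 was 0.982% of that in the others (95% exact counting interval 0.742 to 1.28%). ESRP2 kept more of its level, with 3.99, 4.52 and 1.4 CPM in weakly adherent, strongly adherent and unsorted library 6, against 11.8 to 54.1 CPM in the others. Its pooled rate was 13.2% of the others (11.8 to 14.7%). Such intervals cover counting error only.

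GRHL2, the grainyhead factor most closely tied to epithelial junctions in carcinoma, followed ESRP1. It had 0.43, 0.0802 and 0.229 CPM in weakly adherent, strongly adherent and unsorted library 6, from 14, 3 and 9 reads. The other libraries gave 14.6, 20.6, 18.5, 22.1 and 26.1 CPM in weakly adherent libraries 4, 5, 7-8, 9 and 10, 37.3, 86.6 and 16.7 CPM in strongly adherent libraries 4, 5 and 9, and 24.8, 20.7, 26.0 and 10.7 CPM in unsorted libraries 4, 5, 7-8 and 9. The pooled rate under number 6 was 0.831% of that in the others (0.542 to 1.22%). GRHL1, which in mice controls desmosomal genes of the epidermis, had 0.107 to 0.399 CPM under number 6 and 1.14 to 9.69 CPM elsewhere, a pooled rate of 5.31% (3.39 to 7.93%). GRHL3, known in mice for epidermal barrier formation and wound closure, was at 0.0254 to 0.154 CPM under number 6 and 0.124 to 3.56 CPM elsewhere, 5.28% (2.4 to 10.1%). GRHL3 counts as overlapping through a single pair, 0.154 CPM (5 reads) in weakly adherent library 6 and 0.124 CPM (4 reads) in unsorted library 9. At such counts that order is within counting error.

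The OVOL repressors were at or near 0 reads in the libraries titled 6. OVOL1 had 5 reads in weakly adherent library 6 and OVOL2 had 1, and neither had any read in strongly adherent or unsorted library 6, where a count of 0 allows up to 0.0802 and 0.0763 CPM. In the other 12 libraries OVOL1 was at 0.595 to 5.59 CPM and OVOL2, which directly represses ZEB1, at 1.11 to 6.43 CPM. OVOL1 reached its highest level in strongly adherent library 5 (5.59 CPM) and then in unsorted library 7-8 (3.04 CPM), its lowest outside number 6 in weakly adherent library 4 (0.595 CPM). OVOL2 was highest in strongly adherent library 5 (6.43 CPM), unsorted library 7-8 (3.85 CPM) and strongly adherent library 4 (3.78 CPM). The pooled rates under number 6 were 2.16% of the others for OVOL1 (0.701 to 5.07%) and 0.316% for OVOL2 (0.008 to 1.76%).

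The ETS factors ELF3 and EHF, both known mainly from epithelia, differed from each other. ELF3 had 6.3, 3.58 and 0.916 CPM in weakly adherent, strongly adherent and unsorted library 6. Elsewhere it had 27.2, 25.9, 42.2, 15.8 and 41.5 CPM in weakly adherent libraries 4, 5, 7-8, 9 and 10, 61.7, 83.5 and 21.8 CPM in strongly adherent libraries 4, 5 and 9, and 32.0, 25.4, 65.2 and 10.4 CPM in unsorted libraries 4, 5, 7-8 and 9. All 3 libraries titled 6 were below the lowest of these. EHF had 50.3, 64.3 and 79.5 CPM in weakly adherent, strongly adherent and unsorted library 6, inside the span of 53.2 to 158 CPM of the other 12 but for the weakly adherent one, which was just under it. The pooled rate was 8.77% of the others for ELF3 (7.89 to 9.71%) and 75.2% for EHF (73.3 to 77.1%).

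KLF5, a factor of basal and proliferating epithelial cells, was not low under number 6 at all. It had 53.8, 80.3 and 68.4 CPM in weakly adherent, strongly adherent and unsorted library 6. In the others it had 66.6, 43.8, 58.0, 56.1 and 64.2 CPM in weakly adherent libraries 4, 5, 7-8, 9 and 10, 79.9, 79.4 and 50.9 CPM in strongly adherent libraries 4, 5 and 9, and 51.6, 40.7, 73.2 and 40.9 CPM in unsorted libraries 4, 5, 7-8 and 9. Its highest level of all 15 was the one in strongly adherent library 6, at a pooled rate under number 6 of 114% of the others (111 to 117%).

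**Figure D2:**
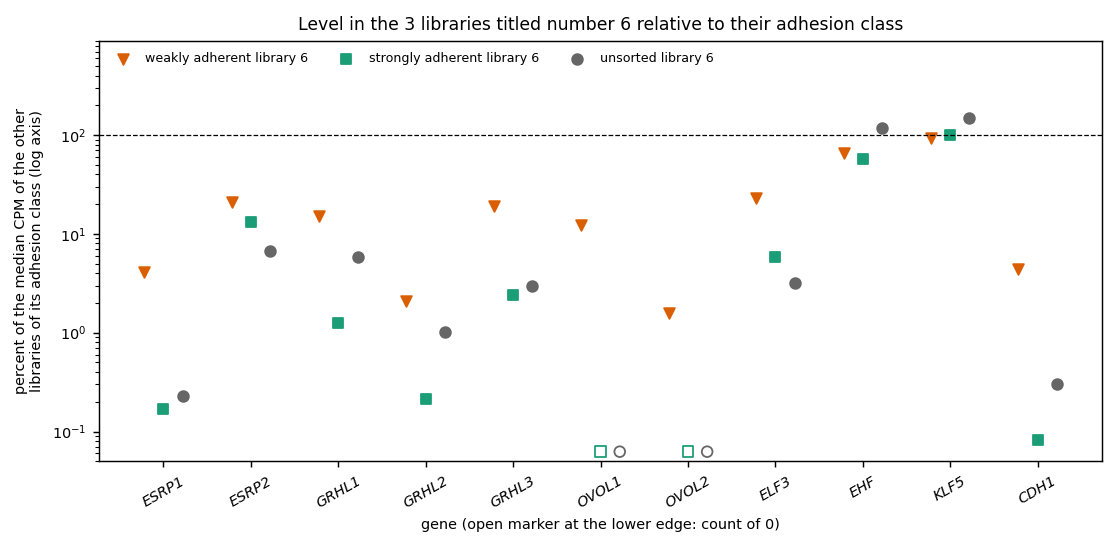
Level of each regulator and of CDH1 in the 3 libraries titled 6, as percent of the median CPM of the other libraries of the same adhesion class, on a log axis. The dashed line is 100%, and open markers at the lower edge stand for a count of 0. The filled points run between 0.0817% for CDH1 in the strongly adherent library and 148% for KLF5 in the unsorted one, and the weakly adherent library is the highest of the 3 for all genes shown but EHF and KLF5.

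The 3 libraries titled 6 were not equally low. Set against the median of the other libraries of the same class, ESRP1 stood at 4.16% in weakly adherent library 6, 0.17% in strongly adherent library 6 and 0.228% in unsorted library 6, close to the values of CDH1 (4.42, 0.0817 and 0.303%). GRHL2 was at 2.09, 0.215 and 1.01% in the same order of libraries. ELF3 was at 23.1, 5.81 and 3.19%, and GRHL1 at 15.2, 1.24 and 5.78%. For all members but EHF and KLF5 the weakly adherent library stood highest on this measure, whereas EHF (65.8, 56.8 and 118%) and KLF5 (92.7, 101 and 148%) stood highest in the unsorted one. For GRHL3, OVOL1 and OVOL2 that order rests on 5 reads or fewer per library. ESRP2 had more CPM in strongly adherent library 6 (4.52) than in the weakly adherent one (3.99). Its order on this measure comes from the class medians, 34.2 CPM in strongly and 18.8 CPM in weakly adherent libraries.

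Outside number 6 the regulators still varied more than most genes. The median SD of log2 CPM over the 12 libraries was 0.784 for the 10 members, against 0.249 for all genes tested. GRHL3 varied most (1.35) and KLF5 least (0.348). Strongly adherent library 5 was the highest of all 15 libraries for 8 of the 10 members, while 18.1% of all genes tested had their highest level there. Strongly adherent libraries 5 and 4 were the 2 highest of the 12 for 7 members (7.71% of all genes), and unsorted library 9 was the lowest of the 12 for 7 members (9.68% of all genes). On the mean z-score of the 10 genes over the 12 libraries, strongly adherent library 5 stood at 1.9, strongly adherent library 4 at 1.13 and unsorted library 7-8 at 0.731, and the other end was held by unsorted library 9 at -1.5 and weakly adherent library 4 at -0.745. Strongly adherent library 5 also carried the highest sum of 18 striated muscle genes, 2710 CPM. The sum was 69.6 to 106 CPM in the other 11 and 255 to 1120 CPM under number 6. Most of the sum in the other 11 was TNNT1, which had 58.1 CPM in strongly adherent library 5 and up to 100 CPM elsewhere. ACTA1 had 864 CPM in strongly adherent library 5, 0.261 to 3.24 CPM in the other 11 and 53.4 to 350 CPM under number 6. The part of muscle RNA in the regulators' levels was not tested.

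The title number accounted for most of the spread of 8 members. Over all 15 libraries, a median of 82.3% of the sum of squares of log2 CPM lay between title numbers for the members, against 50.5% for all genes tested, and a median of 3.36% lay between adhesion classes, against 7.36% for all genes. GRHL2 (94.3%) and OVOL2 (94.0%) had the largest shares between numbers, EHF (16.9%) and KLF5 (32.3%) the smallest. Without number 6 the medians for the members were 26.6% between numbers and 30.8% between classes, against 41.3% and 16.1% for all genes. There are more numbers than classes, so the size of these shares does not rank them.

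The 10 genes covaried. Over the 12 libraries not titled 6, all 45 pairs had a positive Pearson's r of log2 CPM. Their median was 0.819 and their range 0.471 to 0.968. The median over all pairs of genes tested was -0.002, but positive and negative pairs offset each other there. That median does not show how strong r is in a usual pair. ESRP1 with ESRP2 (0.968) and ESRP1 with GRHL2 (0.965) were the closest pairs, and OVOL1 with KLF5 (0.471) the loosest. The log2 ratio of ESRP1 to GRHL2 had an SD of 0.219, although each gene alone had an SD of 0.822 and 0.751. The points share libraries, scaling and depth, and the covariation is part of how the members were chosen, so these values carry no p. Spearman's rho had a median of 0.762 over the 45 pairs. Without the 2 libraries farthest from the median of the first gene of a pair, the median r was 0.662, and without strongly adherent libraries 4 and 5 it was 0.679, with a lowest pair of 0.0397.

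EHF and KLF5, which overlapped between number 6 and the rest, covaried with the other 8 outside it. Their 16 pairs with those 8 had a median r of 0.764 over the 12 libraries, against 0.869 for the 21 pairs among the 7 members that lay wholly below under number 6. Without strongly adherent libraries 4 and 5 the 2 medians were 0.409 and 0.801. Over all 15 libraries the 16 pairs had a median r of 0.351 and reached down to -0.165. That set splits into number 6 and the rest, so the last value describes the split rather than a relation. GRHL3 correlated best with ELF3 (0.911) and OVOL1 least with KLF5.

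**Figure D3:**
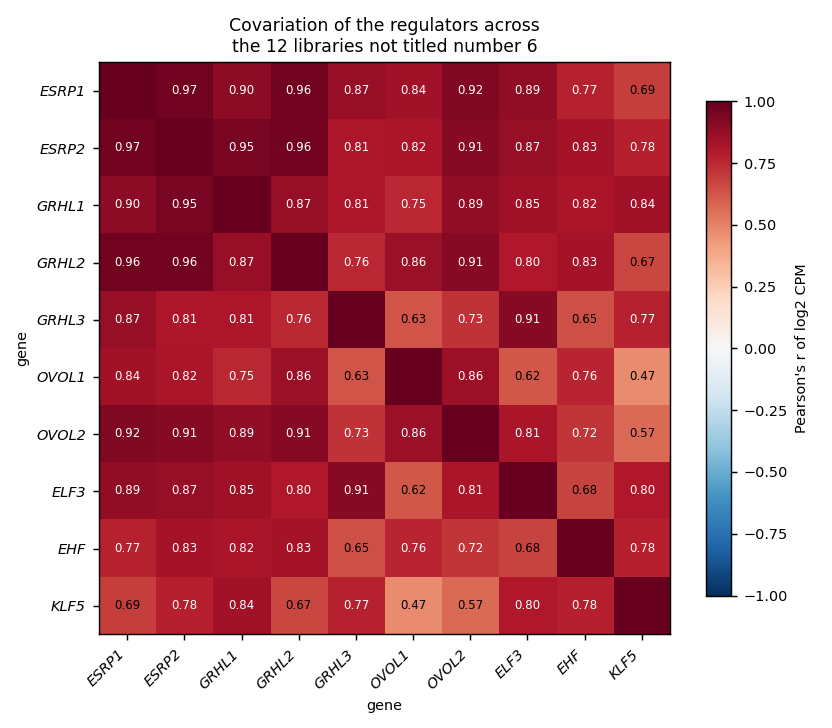
Pearson's r of log2 CPM for every pair of the 10 regulators over the 12 libraries not titled 6, written in each cell and coloured on a scale of -1 to 1. All off-diagonal cells are positive, and the block of ESRP1, ESRP2, GRHL1 and GRHL2 holds the highest values.

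Symbols of the LOC, LINC, -AS and orf kinds were left out of the ranking that follows. Among all other genes with a mean of at least 1 CPM, CDH1 had the highest r to the mean z-score of the 10 members over the 12 libraries (0.988). It was followed by SCIN (0.982), FAM83B (0.98), TMEM30B (0.98), IL1R1 (0.979), MAP7 (0.976), MPZL2 (0.975), VWA2 (0.974), MPP7 (0.97) and GPR116 (0.969). Without the 2 farthest libraries these 10 values were 0.92 to 0.969. Of these 10 genes, 8 lay wholly below under number 6 (10.4% of all genes tested), and IL1R1 and MPP7 overlapped. The lowest r belonged to EML3 (-0.933), FOSL1 (-0.932), UHRF2 (-0.926), KRI1 (-0.924) and PRR5L (-0.919), all of which overlapped between number 6 and the rest.

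The labels define the study's comparison as one between adhesion classes. No regulator passed the test in any contrast, and no gene of the 15190 did either (0.0% called in each of the 3 contrasts and in the test for any difference, edgeR quasi-likelihood with Benjamini-Hochberg adjustment). At an unadjusted p under 0.05 there were 366 genes for weakly against strongly adherent, 81 for weakly adherent against unsorted and 572 for strongly adherent against unsorted, and 258 for any difference. DESeq2, limma voom and limma-trend without a block also called 0 genes in each contrast. The median log2 fold change of the 10 members was -0.8 for weakly over strongly adherent (0 of 10 positive, 46.0% of all genes positive, median of all genes -0.02). For strongly adherent over unsorted it was 0.74 (10 of 10 positive, 53.7% of all genes, median of all genes 0.02), and for weakly adherent over unsorted -0.01 (4 of 10 positive). The members covary, so their signs are not 10 separate observations.

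ESRP1 averaged 30.5 ± 16.2 CPM in weakly adherent tumours (SD, n = 6), 63.5 ± 62.4 CPM in strongly adherent ones (n = 4) and 31.9 ± 23.4 CPM in unsorted ones (n = 5). The SD is of the size of the mean in the strongly adherent class and smaller than it in the others, and each class holds a library near 0. Its log2 fold change was -1.06 ± 1.21 (SE) for weakly over strongly adherent, with a 95% interval of -3.68 to 1.56, and 0.99 ± 1.27 for strongly adherent over unsorted, with an interval of -1.76 to 3.75. GRHL2 averaged 17.1 ± 9.0, 35.2 ± 37.5 and 16.5 ± 10.9 CPM in weakly adherent, strongly adherent and unsorted tumours, with log2 fold changes of -1.04 ± 1.18 and 1.10 ± 1.24 in the same 2 contrasts. Intervals of that width, from the fit with the adhesion class as the only term, hold 0 as well as large changes in either direction.

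EHF and KLF5 had the narrowest intervals. EHF averaged 72.7 ± 12.5 CPM in weakly adherent (n = 6), 104.5 ± 40.8 CPM in strongly adherent (n = 4) and 72.7 ± 16.3 CPM in unsorted tumours (n = 5). Its log2 fold change was -0.52 ± 0.22 for weakly over strongly adherent (unadjusted p = 0.0299, adjusted p = 1, edgeR quasi-likelihood) and 0.52 ± 0.23 for strongly adherent over unsorted (unadjusted p = 0.0367, adjusted p = 0.975, edgeR). It did not pass. KLF5 averaged 57.1 ± 8.1, 72.6 ± 14.5 and 54.9 ± 15.2 CPM in weakly adherent, strongly adherent and unsorted tumours, with -0.35 ± 0.18 and 0.40 ± 0.19 in the same contrasts, and did not pass either. For both genes the weakly adherent and unsorted means differed by far less than the spread, with log2 fold changes of -0.0003 for EHF (95% interval -0.44 to 0.44) and 0.06 for KLF5 (-0.31 to 0.42).

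**Figure D4:**
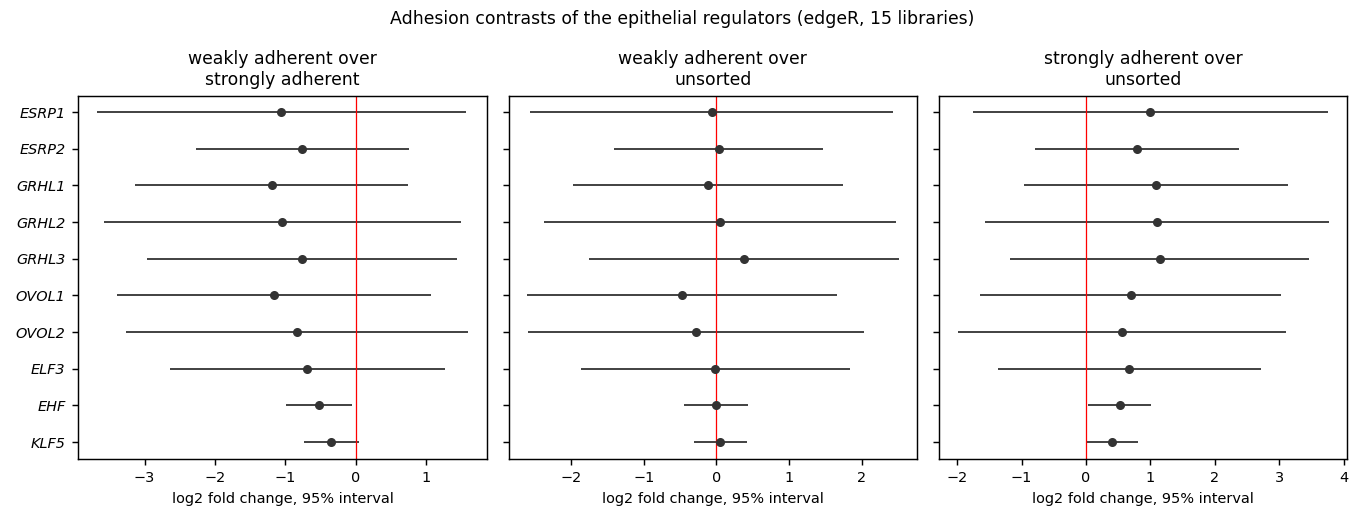
Log2 fold change of each regulator in the 3 adhesion contrasts from the edgeR fit of 15 libraries. Points are estimates, bars are 95% intervals, and the red line marks 0. The 8 members other than EHF and KLF5 have intervals that span 0 widely in all panels. The EHF interval is clear of 0 in the outer panels before adjustment over all genes.

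The size of these changes rested in part on strongly adherent library 5, as did the direction for OVOL1 and OVOL2 against unsorted. Without it the members' median log2 fold change was -0.26 for weakly over strongly adherent and 0.23 for strongly adherent over unsorted, where OVOL1 (-0.08) and OVOL2 (-0.07) turned negative. Without the 3 libraries titled 6 the 2 medians were -0.96 and 0.82, and without these and strongly adherent library 5 they were -0.5 and 0.41. Leaving out other single libraries moved the 2 medians as far as -1.21 (without strongly adherent library 6) and 1.19 (without unsorted library 7-8). On the log scale of limma voom, 4 members were positive for weakly over strongly adherent and the median was -0.25. ESRP1 (0.38), GRHL2 (0.24), OVOL1 (0.12) and OVOL2 (0.13) were the 4. All 10 stayed positive for strongly adherent over unsorted there, with a median of 0.54, and all 10 were positive for weakly adherent over unsorted, with a median of 0.49.

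Within single title numbers the strongly adherent library was above the unsorted one for all 10 members under number 4 (median log2 difference 0.71), number 5 (1.65) and number 9 (0.88). Over all genes tested, 50.8, 50.5 and 53.5% were positive under the same numbers. Under number 6, 5 members were higher and 3 lower in the strongly adherent library, and OVOL1 and OVOL2 had no read in either. The weakly adherent library lay below the strongly adherent one for all 10 members under numbers 4 (median -1.49) and 5 (-1.86), but above it for 7 under number 6 (0.73) and for 6 under number 9 (0.11). Weakly adherent against unsorted had no common direction: 1, 4, 8, 1 and 10 members were higher in the weakly adherent library under numbers 4, 5, 6, 7-8 and 9. Each of these is 1 library against 1, with no replicate check, and whether the numbers pair the tumours is not given.

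The genes these factors act on were read from lists of junction, epithelial, EMT and mesenchymal genes. None of the listed genes passed the test in any adhesion contrast. Of 18 tested junction and polarity genes, 14 lay wholly below under number 6 (10.4% of all genes tested), none above and 4 overlapped. Their median r to the members over the 12 other libraries was 0.907. JUP (plakoglobin, of adherens junctions and desmosomes) was at 216 to 319 CPM under number 6 and 356 to 550 CPM elsewhere, and CLDN4 (a tight junction claudin) at 81.7 to 157 and 195 to 362 CPM. DSP (desmoplakin, 142 to 203 and 202 to 654 CPM) and PERP (a desmosomal membrane protein, 125 to 183 and 167 to 396 CPM) overlapped. These abundant genes kept much of their level where CDH1, at 0.98% of its rate in the others, did not. CDH1 was not alone in this: MARVELD3 was at 0.81%, CRB3 at 2.79%, CGN at 2.92% and TJP3 at 3.17%. At the other end CLDN7 was at 85.5%, and the median log2 difference of the list was -1.77. Of 20 other epithelial genes, 17 lay wholly below (10.4% of all genes tested), none above and 3 overlapped. The simple keratins KRT7 (749 to 1000 and 1330 to 2810 CPM), KRT8 (539 to 700 and 940 to 2380 CPM), KRT18 (279 to 355 and 438 to 970 CPM) and KRT19 (837 to 1000 and 1090 to 2360 CPM) were among them.

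ZEB1, the EMT repressor that the OVOL and GRHL2 proteins oppose, ran the other way. It was at 73.1, 89.0 and 122 CPM in weakly adherent, strongly adherent and unsorted library 6, and at 9.59 to 70.5 CPM in the other 12. Its lowest level was in strongly adherent library 5, where 8 regulators peaked. Its r to the members over the 12 libraries was -0.826, and -0.659 without strongly adherent library 5. The other EMT factors did not share this: of 9 tested, TWIST1 (1.15 to 1.4 under number 6 and 2.0 to 9.23 CPM elsewhere) and TWIST2 lay wholly below, and SNAI2 (r 0.438), ZEB2 (-0.127) and TCF4 (0.198) were among the 6 that overlapped. Of 14 tested mesenchymal genes 2, VIM and MSN, lay wholly above, SPARC lay wholly below and 11 overlapped, FN1 (2370 to 7030 and 2840 to 5070 CPM) included. The median r of the 14 to the members was -0.138. Among all genes tested, 10.4% lay wholly below under number 6 and 5.63% wholly above. Counts as small as those of the EMT and mesenchymal lists do not set them apart from these shares.

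Of the close relatives of the regulators, 0 of 3 CP2 factors, 1 of 20 ETS factors and 0 of 14 KLF factors lay wholly below under number 6, against 10.4% of all genes tested, and counts this small do not set them apart from that share. The CP2 factors TFCP2 (17.8 to 21.6 CPM under number 6 and 19.4 to 29.6 CPM elsewhere), TFCP2L1 (0.331 to 2.22 and 1.66 to 9.25 CPM) and UBP1 (99.5 to 136 and 80.1 to 106 CPM) all overlapped, and OVOL3 did not exceed 0.0999 CPM in any library. Of 20 other ETS factors tested, ETV7 alone lay wholly below (0.16 to 0.584 and 2.58 to 12.5 CPM, r 0.874 to the members), ETV1 (124 to 151 and 61.1 to 108 CPM) and ELK1 lay wholly above, and 17 overlapped, among them ETS1, ELK3 and SPDEF. Of 14 other KLF factors tested, none lay below, and KLF4 (143 to 251 and 40.2 to 128 CPM) and KLF6 (462 to 902 and 220 to 437 CPM) lay wholly above.

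**Figure D5:**
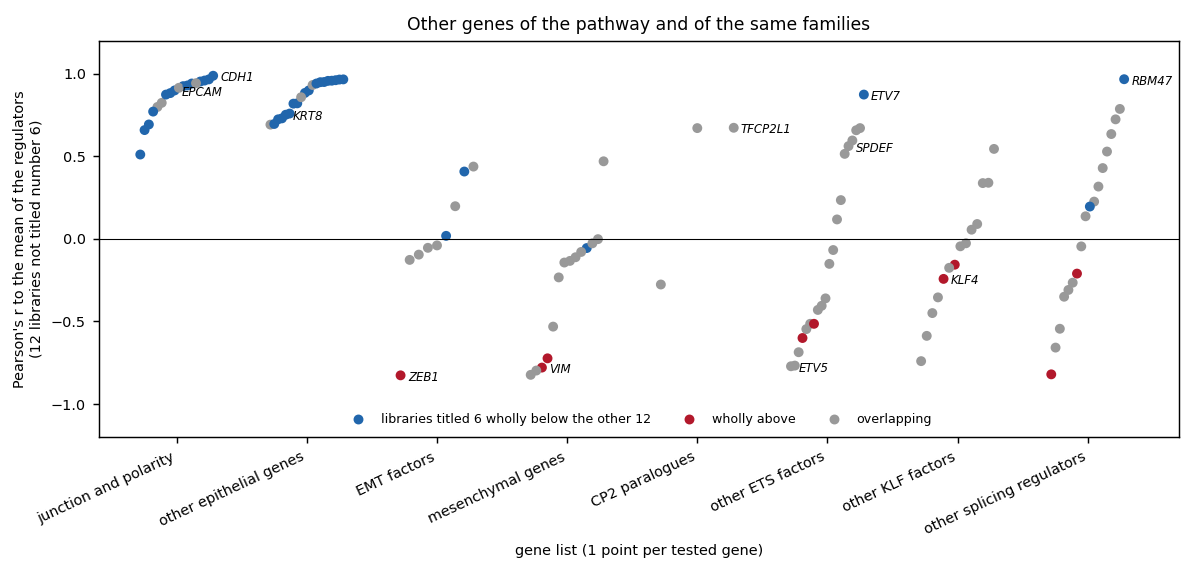
Pearson's r of each tested listed gene to the mean of the regulators over the 12 libraries not titled 6, grouped by gene list, 1 point per gene. Blue marks genes whose 3 libraries titled 6 lie wholly below the other 12, red those wholly above, grey those that overlap. Junction and other epithelial genes sit above 0.5 and are mostly blue, while the ETS, KLF and splicing lists spread around 0.

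Of 18 other splicing regulators tested, 2 lay wholly below under number 6 and 2 wholly above, counts close to the 10.4% and 5.63% of all genes tested. The other 14 overlapped, PTBP1 (362 to 390 CPM under number 6 and 309 to 403 CPM elsewhere) and SRSF1 (243 to 336 and 223 to 293 CPM) among them. RBM47, an RNA-binding protein also linked to epithelial splicing, had 1.09 to 3.1 CPM under number 6 and 10.1 to 86.5 CPM elsewhere, with an r of 0.967 to the members. NOVA1 was also wholly below, and HNRNPM (350 to 397 and 278 to 346 CPM), known to compete with ESRP1 on CD44 exons, and KHDRBS3 (67.9 to 83.5 and 16.4 to 58.2 CPM) lay wholly above. Of 12 genes whose transcripts ESRP proteins are known to splice, FGFR3 (0.428 to 1.17 and 3.46 to 43.8 CPM), ENAH and ARHGEF11 lay wholly below and 9 overlapped. CD44 was at 670 to 729 CPM under number 6 and 478 to 776 CPM elsewhere. Counts per gene do not show which exons were used, so splicing itself was not analysed here.

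Marker levels of other cell types also differed between number 6 and the rest, and their part in the regulators' levels was not tested. The 12 lung epithelium genes summed to 4.05 to 7.97 CPM under number 6 and to 25.9 to 355 CPM elsewhere, with NKX2-1 at 0.0 to 0.399 and 6.18 to 58.1 CPM and SFTPB at 0.229 to 0.43 and 8.35 to 211 CPM. SFTPC, SFTPD, SCGB1A1 and SCGB3A2 stayed under 1 CPM in every library. Of 9 tested lung genes, 6 lay wholly below under number 6 (10.4% of all genes tested) and 3 overlapped. AGER, at 3.36 to 6.15 and 2.74 to 6.8 CPM, was among these 3. The 15 keratinocyte genes summed to 65.0 to 101 CPM under number 6 and 98.2 to 291 CPM elsewhere, with TP63 at 0.642 to 0.983 and 2.38 to 60.0 CPM, while 8 of the 15, IVL, DSG1 and KRT1 among them, were under 1 CPM everywhere and LOR had no read. Of 7 tested keratinocyte genes, 4 lay wholly below and 3 overlapped. KRT10, at 37.2 to 62.0 and 31.8 to 50.3 CPM, was among those that overlapped. The mammary list summed to 32.1 to 65.9 and 80.1 to 168 CPM, and the fibroblast list to 224 to 413 and 445 to 1360 CPM, lower under number 6 in both cases. ACTA2 and COL1A1 had the highest mean CPM of these lists. Of 8 tested mammary genes 3 lay wholly below and 5 overlapped, and of 9 tested fibroblast genes 3 and 6. PRLR (2.75 to 4.21 and 0.778 to 2.8 CPM) and FAP (21.6 to 36.7 and 10.9 to 32.5 CPM) overlapped, with a higher pooled rate under number 6. The endothelial list summed to 330 to 347 and 46.0 to 267 CPM, mostly through ESAM and ROBO4, with VWF under 1 CPM in every library. The white blood cell list summed to 123 to 205 and 74.0 to 128 CPM, mostly through CD68. Of its 5 tested genes CD68 lay wholly above (5.63% of all genes tested). PTPRC lay wholly below, at 0.107 to 0.399 and 0.584 to 1.83 CPM, and 3 overlapped. Of these, CSF1R and LYZ had a lower pooled rate under number 6 and CD14 a higher one. The adipocyte list, with ADIPOQ at 0, summed to 27.3 to 29.2 and 26.9 to 56.8 CPM.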

How the data were processed

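Bulk mRNA of 15 tumours or tumour pools was sequenced by the submitters as 50 bp single-end reads from a stranded kit, per the labels' protocols. The tools named in the submitters' processing notes are STAR, HTSeq, DESeq2, cutadapt and FastQC, with build hg19. No version is named, and the strand setting of the counting is also not given in the sources used. Mouse is the labelled organism, while symbols and build are human. The table of raw counts that the authors deposited holds 25382 gene symbols, 4710 of them without a count. They also deposited a table of log2 values, each equal to log2 of the count over its median-of-ratios size factor plus 1 (within 5.15e-14).

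The tests on counts used edgeR 4.0.16 (R 4.3.3), with filterByExpr, TMM factors and a robust quasi-likelihood fit of all libraries with the adhesion class as the only term. The 15190 genes kept hold 99.98% of the counts, 30372619 to 45434799 per library, and the biological coefficient of variation was 33.6%. Tests were two-sided, adjusted over all genes by Benjamini-Hochberg, threshold 0.05. Standard errors are the absolute log2 fold change over the square root of F. Log2 CPM uses a prior count of 2. Pooled rates divide summed counts by summed TMM-scaled library sizes, with exact binomial intervals at 95% (scipy 1.17.1). A count of 0 was read as at most 3 counts in its library. DESeq2 1.42.0 and limma 3.58.1 served as alternatives, and scripts were tested on simulated data.

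The members and gene lists were chosen with earlier results of these data known, so number 6 and the covariation carry no test. Named are the members, CDH1, VIM, genes from the 4 with the highest mean CPM of each list, and the 10 genes with the highest and 5 with the lowest r to the members. Other genes named were chosen after their values were seen. Promoter motifs were planned and are not analysed here. An item withheld for evaluation is not reported here.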

Additional observations from a re-analysis of the deposited data

Results flagged for a closer look

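Of 30 combinations of a regulator and an adhesion class, 10 held 1 library that stood apart from the rest of its class by Dixon's criterion. All 10 were low, and 9 were libraries titled 6. The members were chosen with number 6 known, so the 9 follow from that choice and are given as values. In weakly adherent library 6, ESRP1 was at 1.44 CPM (24.4 to 46.3 CPM in the other 5), ESRP2 at 3.99 CPM (15.9 to 25.6 CPM), GRHL2 at 0.43 CPM (14.6 to 26.1 CPM) and OVOL2 at 0.0307 CPM (1.19 to 3.14 CPM). In unsorted library 6, ESRP1 was at 0.102 CPM (14.7 to 55.3 CPM in the other 4), ESRP2 at 1.4 CPM (11.8 to 26.3 CPM), GRHL2 at 0.229 CPM (10.7 to 26.0 CPM), OVOL1 at 0.0 CPM (1.08 to 3.04 CPM) and OVOL2 at 0.0 CPM (1.11 to 3.85 CPM). In the strongly adherent class the library that stood apart was number 9, and only for KLF5, with 50.9 CPM against 79.4 to 80.3 CPM in the other 3, library 6 among them.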

How the results depend on the processing

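No regulator passed the threshold in any contrast under any of the other scalings, filters, tools or left-out libraries, and edgeR called 0 genes in each. The labels do not say whether the title numbers pair the libraries, and a check on the counts did not settle it. Of 13 same-number pairs, 11 had correlated deviations above 0.1 (0.0164 to 0.767), and 9 of 14 libraries matched their own number best. With the title number as a replicate block, edgeR again called 0 genes in each contrast, with 1030, 172 and 1255 genes at an unadjusted p under 0.05 in the weakly/strongly, weakly/unsorted and strongly/unsorted contrasts. DESeq2 with that block, chosen after seeing the data, called 35, 7 and 22 genes and no regulator (smallest adjusted p 0.11). The cause was not tested. Log2 fold changes of weakly adherent over unsorted lay close to 0 and changed sign most often (58 of 230 values, against 7 of 220 for weakly over strongly adherent and 2 of 210 for strongly adherent over unsorted). They became 0.001352 for ELF3 and 0.02107 for EHF with upper-quartile scaling, and for EHF 0.006581 without a filter, 0.004296 with 1 CPM in 4 libraries and 0.00127 with the 2 groups alone. With the block they were 0.294 for ESRP1 and 0.4235 for ELF3 in edgeR, and 0.8063 for ESRP1, 0.0658 for GRHL1, 0.006296 for OVOL1 and 0.5154 for ELF3 in DESeq2. With limma voom they were 0.9897 for ESRP1, 0.3892 for GRHL1, 0.4768 for OVOL1, 0.4942 for OVOL2, 0.733 for ELF3 and 0.009701 for EHF, and with limma-trend on the authors' log2 values 0.8426, 0.2779, 0.1791, 0.1733, 0.6784 and 0.003593. Without the libraries titled 6 they were -0.05711 for ESRP2, -0.004307 for GRHL2 and 0.1267 for EHF, and without strongly adherent library 5 as well -0.05733, -0.004532 and 0.1267. For weakly over strongly adherent, limma voom gave 0.3843 for ESRP1, 0.2444 for GRHL2, 0.1158 for OVOL1 and 0.1287 for OVOL2, and limma-trend 0.4285 for ESRP1, 0.2863 for GRHL2 and 0.002453 for OVOL1. Leaving out 1 library at a time, the weakly adherent over unsorted values ran between -0.3891 and 0.2282 for ESRP1, -0.2699 and 0.2704 for ESRP2, -0.417 and 0.3343 for GRHL1, -0.2701 and 0.3082 for GRHL2, -0.3126 and 1.239 for GRHL3, -0.6053 and 0.04044 for OVOL2, -0.3271 and 0.6273 for ELF3, -0.09405 and 0.121 for EHF, and -0.03584 and 0.1803 for KLF5. The strongly adherent over unsorted values ran between -0.08374 and 1.105 for OVOL1 and between -0.07188 and 0.9649 for OVOL2. The mean log2 CPM under number 6 was below that of the others for 9 members and above it for KLF5 under 6 alternatives, namely the 2 other scalings, a prior count of 0.5 and leaving out each library titled 6. A prior count of 0.5 moved the log2 difference to -5.798 for OVOL1 and -6.99 for OVOL2, which rest on 5 reads and 1. The share of the members' spread between title numbers was 26.6% without number 6, against 82.3% with it. Depth limits GRHL3, OVOL1 and OVOL2, whose levels under number 6 rest on 9 reads or fewer.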
